A study of Mus musculus with 2 samples.

Results

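The genes described here are 9 transcription factors that direct the epidermal and hair follicle fates of surface epithelium, namely *Trp63*, *Klf4*, *Klf5*, *Grhl1*, *Grhl2*, *Grhl3*, *Ovol1*, *Foxn1* and *Gata3*. They were taken by name from the array's gene annotation, with every probe other than controls, which gave 13 probes for these 9 genes among 55679 probes and 21244 named genes. Total RNA from the incisor of wild-type (WT) mice and of *Sox21* knockout mice (*Sox21* KO), in which the gene for a Sox-family transcription factor was targeted, was labelled with Cy3 and hybridized to Agilent mouse arrays, 1 array per genotype. The sample labels give postnatal day 0 for both genotypes, whereas the study's methods place the tooth germs on the following day. The study names C57BL/6J for its wild-type mice, and the genetic background of the KO mice is not given in the sources used here. With 1 array per genotype no difference has a replicate check and no test was run, so that only the values, the scanner's own error and the spread between repeated spots describe the precision.

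Tooth and hair both begin as an epithelial placode over mesenchyme, and the same surface epithelium elsewhere becomes stratified epidermis or oral mucosa. p63, the product of *Trp63*, sets up the stratified epithelial lineage and keeps its basal cells able to divide, while *Klf4*, the grainyhead-like genes and *Ovol1* act as those cells stop dividing, tighten their junctions and build a barrier. *Foxn1* and *Gata3* act in the hair follicle, *Foxn1* in the hair shaft and *Gata3* in the inner root sheath, and both also act in the thymus or in T cells.

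Each value below is the processed signal, which is the brightness of a spot after the scanner software had removed its background. Normalized signal is the processed signal divided by the 75th percentile of its array, which was 268 on the WT array and 276 on the KO array. The log2 ratio is the normalized signal of *Sox21* KO minus that of WT on the log2 scale. The error given after it combines the scanner's error for both spots. It was close to 0.20 at all the brighter probes of these factors and is not a spread between repeated spots. A probe counted as measured where the scanner marked it well above background on both arrays, and a gene with several measured probes was given the value of the brightest. The targeted gene gave 1362 on the WT array and 659 on the KO array at its brighter probe and 286 and 103 at the other, log2 ratios of -1.09 and -1.51. Both probes were thus lower on the KO array but stayed above the 95th percentile of the negative controls there, 5.39, and whether they lie in the deleted part of the gene is not given in the sources used here. The scanner's mark for well above background was on 49.7% of non-control spots of the WT array and on 50.4% of those of the KO array. Log2 ratios of probes spotted repeatedly had a median SD between spots of 0.26 for 36 dim probes with a mean signal under 100 and of 0.08 for 247 brighter probes. These spots share the RNA and the array, so their spread leaves out the differences between animals.

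Of the 13 probes, 10 were measured on both arrays, 1 stood well above background with the KO RNA alone and 2 with neither. Of all 21244 named genes, 451 stood well above background on the KO array alone and 274 on the WT array alone. Neither array marked 6714 of them. Genes given below as well above background on the KO array alone are read against these counts. By gene, 7 of the 9 factors were measured, and 6 of these 7 were higher in *Sox21* KO and 1 was lower, where 52.4% of the 13805 measured genes were higher by any amount. The median log2 ratio of the 7 factors was 0.49 and their range was -0.03 to 1.13. For comparison, the median of all measured genes was 0.01 and their 5th and 95th percentiles were -0.47 and 0.48. At least 2-fold higher was 1 of the 7 factors, *Foxn1*, against 0.739% of measured genes. At least 2-fold lower were 0 of the 7, against 0.666%. Another scale, chosen after seeing the data, sets both arrays equal at the median of the epithelium markers. It lowers every log2 ratio by the same 0.25, so that the median of all measured genes becomes -0.24 and 14.9% of them are higher, and counts on it are read against that share.

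**Figure D1:**
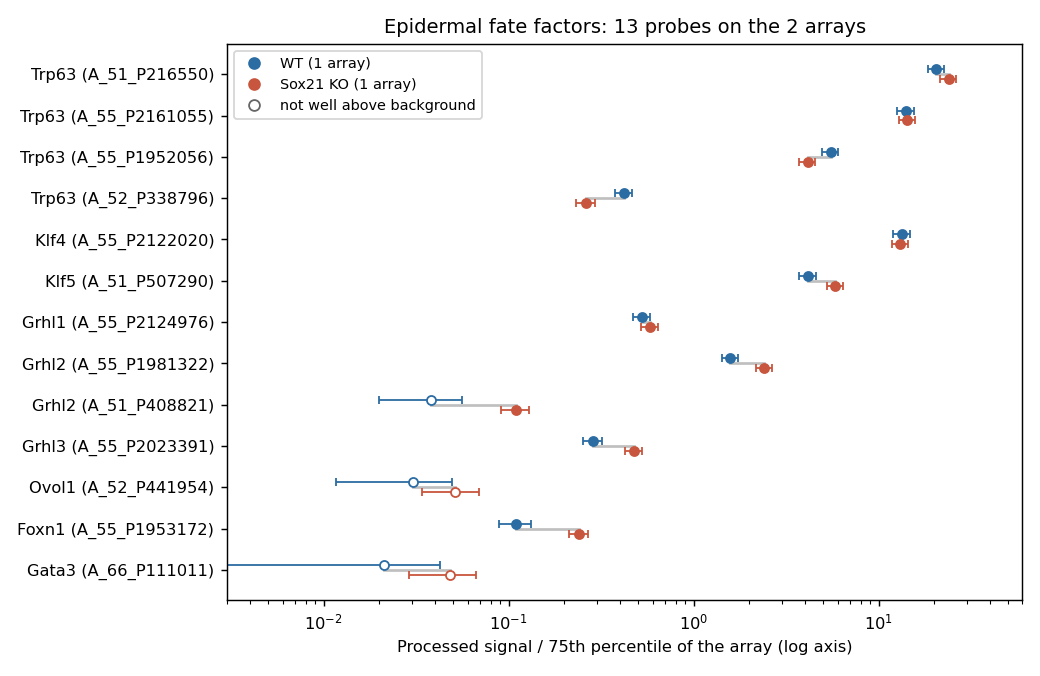
Normalized signal (processed signal over the 75th percentile of the array, log axis) of all 13 probes on the WT array (blue) and the Sox21 KO array (red). Bars are the scanner's error of 1 spot and open circles are spots not well above background. The *Foxn1* and *Grhl3* probes lie apart on the 2 arrays, at 0.110 and 0.241 and at 0.286 and 0.478, while the *Klf4* points overlap at 13.4 and 13.1.

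*Trp63* had 4 probes, all on the plus strand of chromosome 16 and all measured, and they differed in direction. The brightest, annotated to NM_011641 (mm9, chr16:25892012-25892071), gave a signal of 5506 on the WT array and 6608 on the KO array, for a log2 ratio of 0.22 ± 0.20. The probe annotated to NM_001127261 (chr16:25871159-25871218) gave 3765 and 3936, a log2 ratio of 0.02 ± 0.20. At these 2 probes the KO signal was the higher, by about the scanner's error at the first and by far less than it at the second. The sequence of the second probe is shown since it lies in coding sequence, where a run of CAG repeats encodes glutamines, so that it reads RNA able to encode p63. None of its bases are capitalised.

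Trp63 coding probe: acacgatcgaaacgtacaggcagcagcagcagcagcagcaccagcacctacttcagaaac

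The other 2 *Trp63* probes stand for cDNA clones and were lower in *Sox21* KO. The probe for clone AK138305 (chr16:25821344-25821403) gave 1478 on the WT array and 1142 on the KO array, for a log2 ratio of -0.41 ± 0.20. The probe for clone AK048623 (chr16:25867718-25867777) gave 113 and 72.3, a log2 ratio of -0.68 ± 0.23. Of all measured genes, 93.6% had a log2 ratio at or above the first of these values and 98.0% at or above the second. The span from the highest to the lowest *Trp63* probe was 0.90 ± 0.30 on the log2 scale. The sign given to *Trp63* therefore depended on the probe, and the mean log2 ratio over its 4 probes was -0.21 where the brightest probe alone gave 0.22.

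**Figure D2:**
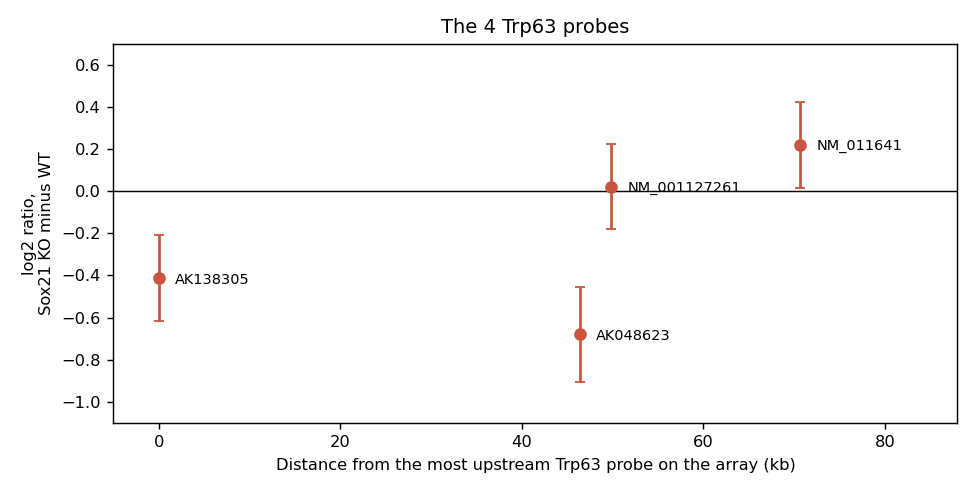
Log2 ratio (Sox21 KO minus WT) of the 4 *Trp63* probes against their distance in kb from the most upstream of them, with the scanner's error as bars and the transcript each probe is annotated to. The probes at 0 and 46.4 kb lie below 0, at -0.41 and -0.68, and those at 49.8 and 70.7 kb lie at 0.02 and 0.22.

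Both Kruppel-like members were measured. *Klf5*, which is found in dividing basal cells of many epithelia, gave a signal of 1112 on the WT array and 1608 on the KO array. This was a log2 ratio of 0.49 ± 0.20, or 1.40-fold higher in *Sox21* KO, and 4.85% of measured genes had a log2 ratio as high or higher. Its probe (mm9, chr14:99702656-99712388, plus strand) covers 60 bases of RNA over 9733 bases of genome and so crosses an intron. It is shown for that reason, and because it falls in the coding sequence of the zinc fingers that bind DNA.

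Klf5 exon-crossing probe: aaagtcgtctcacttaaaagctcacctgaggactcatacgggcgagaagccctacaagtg

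*Klf5* lies on the same chromosome as *Sox21*, 18.93 Mb away by their probes. *Klf4*, a factor of the outer, differentiating layers of epidermis that is needed for its barrier, gave 3579 on the WT array and 3607 on the KO array (chr4:55540167-55540226, minus strand). After scaling, its log2 ratio was -0.03 ± 0.20, which was within the scanner's error of 0. The *Klf4* value was the lowest of the 7 at the brightest probe of each gene, though *Trp63* was lower, at -0.21, as the mean over its probes. Of all measured genes, 58.1% had a log2 ratio at or above that of *Klf4*.

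The 3 grainyhead-like factors, which hold epithelial junctions and the skin barrier in place, were all higher in *Sox21* KO at their measured probe, though *Grhl1* was at -0.11 on the scale of the epithelium markers. *Grhl3*, which drives the last steps of barrier formation, gave 76.6 ± 9.34 on the WT array and 132 ± 14.0 on the KO array (scanner error; mm9, chr4:135097991-135098050, minus strand). Its log2 ratio was 0.74 ± 0.23, or 1.67-fold higher in *Sox21* KO. Of all measured genes, 1.72% had a log2 ratio as high or higher. *Grhl1*, which acts on desmosomal genes of epidermis and hair, gave 141 and 161 (chr12:25302095-25302154, plus strand), a log2 ratio of 0.14 ± 0.21. The *Grhl1* difference was smaller than the scanner's error.

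*Grhl2*, which acts on adherens and tight junction genes in many simple and stratified epithelia, had a pair of probes on the plus strand of chromosome 15. The brighter (chr15:37293139-37293198) gave 424 on the WT array and 665 on the KO array, for a log2 ratio of 0.61 ± 0.20. This was 1.52-fold higher in *Sox21* KO, and 2.87% of measured genes had a log2 ratio as high or higher. The other probe (chr15:37239426-37239485) gave 10.2 ± 4.81 and 30.4 ± 5.27, and was well above background on the KO array alone. The dimmest WT spot with that mark had a signal of 21.3, and measured against this limit the KO value was at least 1.39-fold higher. Of the 308 negative control spots, 8 were at or above this probe on the WT array and 0 on the KO array. Since the dim probe had the mark only on the KO array, it was not counted as a check on the direction of the brighter probe. The dim probe is shown because it falls within coding sequence, and the letters are those on the array.

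Grhl2 coding probe: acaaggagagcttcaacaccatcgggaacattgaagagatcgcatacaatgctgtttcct

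*Foxn1*, the factor whose loss makes nude mice hairless and which acts in cells of the hair shaft and in thymic epithelium, gave 29.4 ± 5.83 on the WT array and 66.4 ± 8.10 on the KO array (scanner error; mm9, chr11:78171867-78171926, minus strand). Its log2 ratio was 1.13 ± 0.34, or 2.19-fold higher in *Sox21* KO, and 0.572% of measured genes had a log2 ratio as high or higher. The *Foxn1* signal on the WT array was close to the limit of 21.3 given above. Among the 2066 measured genes with a mean log2 signal within 1 of *Foxn1*, 1.36% were at least 2-fold higher, and their 5th and 95th percentiles were -0.67 and 0.69. With another background correction, normexp on the raw intensities with an offset of 50, the *Foxn1* log2 ratio was 0.42 and that of *Grhl3* was 0.44, so that 0 of the 7 factors were then at least 2-fold higher. *Grhl2* was 0.51 and *Klf5* 0.50 under that correction.

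**Figure D3:**
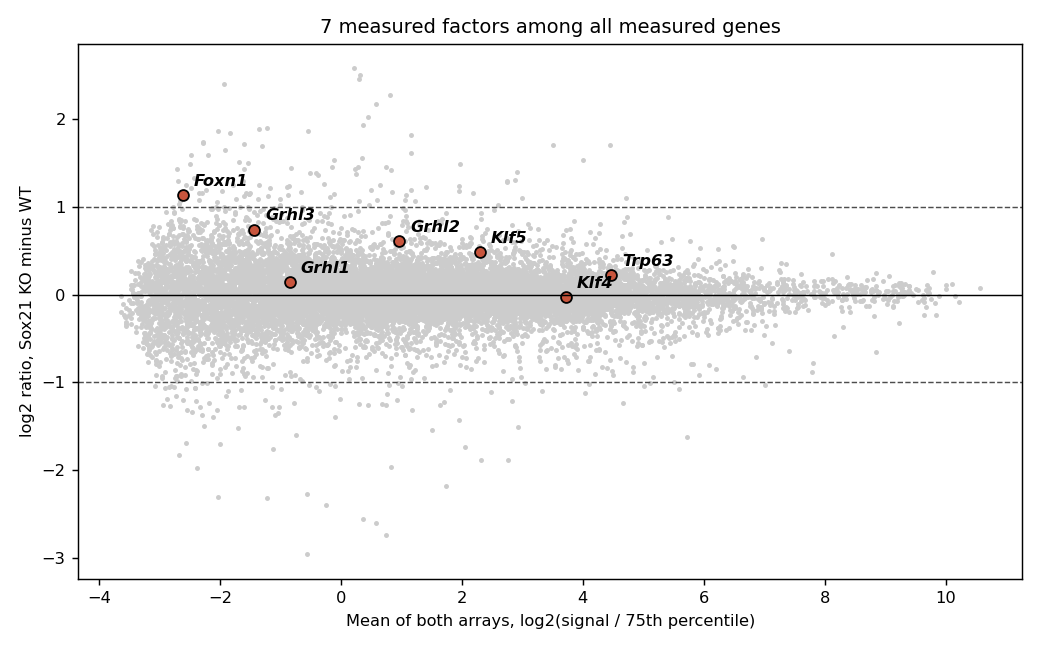
Log2 ratio (Sox21 KO minus WT) against the mean log2 normalized signal of both arrays for all 13805 measured genes (grey) and the 7 measured factors (red), with dashed lines at a 2-fold difference. *Foxn1* lies above the upper line at 1.13, among dim genes whose spread is wider, and the other 6 factors lie between the lines.

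The 2 remaining factors were not measured on either array and have no ratio. *Ovol1*, which acts as keratinocytes leave the cell cycle, gave 8.15 ± 5.02 on the WT array and 14.2 ± 4.78 on the KO array (chr19:5549209-5549268, minus strand). Its signal was reached by 10 of the 308 negative control spots on the WT array and by 2 on the KO array. The *Gata3* probe (chr2:9779551-9779610, minus strand) gave 5.67 ± 5.71 and 13.2 ± 5.22, and the scanner marked its spot as not found on both arrays. On the WT array 53 negative control spots reached its signal and on the KO array 2 did. For these genes the arrays set no direction.

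Promoter sequence from RefSeq (GRCm38.p6), the 250 bases before each transcription start, was matched for 5 of the 9 factors, *Foxn1*, *Gata3*, *Grhl1*, *Grhl3* and *Klf4*. Promoters of *Trp63*, *Klf5*, *Grhl2* and *Ovol1* were not analysed here. Those of *Foxn1* (chr11:78386609-78386858) and *Grhl3* (chr4:135573633-135573882), both on the minus strand, are shown as the promoters of the factors with the highest log2 ratios. Capitals mark CACCC, the box bound by Kruppel-like factors, on either strand.

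Foxn1 promoter: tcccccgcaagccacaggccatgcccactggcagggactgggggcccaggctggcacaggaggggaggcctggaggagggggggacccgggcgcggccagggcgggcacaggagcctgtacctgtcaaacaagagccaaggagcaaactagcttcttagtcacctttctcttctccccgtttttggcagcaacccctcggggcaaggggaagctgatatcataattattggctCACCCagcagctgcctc
Grhl3 promoter: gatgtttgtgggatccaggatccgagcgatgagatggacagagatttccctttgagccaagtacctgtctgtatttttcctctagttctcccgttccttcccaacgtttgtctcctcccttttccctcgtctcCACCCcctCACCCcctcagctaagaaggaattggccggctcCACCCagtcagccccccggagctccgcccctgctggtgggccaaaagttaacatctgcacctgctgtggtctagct

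CACCC occurred 1 time in the *Foxn1* promoter, 3 times in that of *Grhl3*, 3 times in that of *Gata3* and 0 times in that of *Klf4*. Of the *Grhl1* promoters, of which the table holds 2, the first had 0 and the second 2. The same letters were found on either strand in 52.0% of the 32851 mouse promoters of this length, so their presence is common. The Sox core ACAAT was found in 27.7% of all promoters, the grainyhead motif AACCNGTT in 1.79% and the Gata motif AGATAA in 9.99%. None of these 3 motifs was found on either strand in the windows of the 5 factors.

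The relatives of the 9 factors were set beside them, as other genes of their families. Of 30 relatives, 29 had a probe, 22 were measured, and *Sox21* KO had the higher signal for 15 and the lower for 7. Their median log2 ratio was 0.09, and 0 of the 22 were at least 2-fold apart in either direction. Among 12 measured Kruppel-like genes other than *Klf4* and *Klf5*, 11 were higher and 1 lower, with a median of 0.16, and on the scale of the epithelium markers 3 of the 12 were higher, with a median of -0.095 against -0.24 for all genes. The highest were *Klf9* at 0.54 and *Klf6* at 0.43, both widely expressed genes induced by hormones or injury, and the lowest were *Klf10*, a gene induced by TGF-β, at -0.10 and *Klf14* at 0.03. *Klf15* was well above background on the KO array alone and at least 1.42-fold higher. The *Klf5* value lay near the top of its family and that of *Klf4* near the bottom.

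The other families were smaller. Of the p63 relatives, *Trp73* was at 0.25 and *Trp53*, the tumour suppressor, at 0.00. The CP2 factors, distant relatives of the grainyhead genes, lay lower than all 3 *Grhl* genes, with *Ubp1* at -0.44, *Tfcp2* at -0.18 and *Tfcp2l1* at -0.00. *Foxn2* was at 0.46 and *Foxn3* at -0.18, both below *Foxn1*. *Ovol2*, which protects epithelial identity, was measured where *Ovol1* was not, with a log2 ratio of 0.10. Of the other Gata genes, *Gata2* was at -0.32 and *Gata5* at -0.02, and *Gata1*, *Gata4* and *Gata6* were not well above background on either array.

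Among 29 other transcription factors of epidermis and hair follicle, 24 were measured, 17 higher and 7 lower, with a median of 0.12 and 0 at least 2-fold apart, and on the scale of the epithelium markers 7 of 24 were higher and the median was -0.13, against 14.9% and -0.24 for all genes. The highest were *Hr*, the hairless corepressor of the hair cycle, at 0.63, and *Vdr*, the vitamin D receptor, at 0.58. The lowest were *Maf* at -0.65 and *Cux1*, a homeobox gene of the inner root sheath, at -0.61, which as means over their probes were at -0.39 and -0.18. *Ehf*, an ETS factor of differentiating epithelia, was well above background on the KO array alone and at least 3.03-fold higher, and *Tfap2b* was likewise at least 1.25-fold higher. Their median lay below that of the 7 measured factors.

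Lists of genes linked to the factors, some as targets and some, like *Msx2* and *Hoxc13*, as regulators upstream of *Foxn1*, were described by counts and medians. Over all measured genes the median was 0.01, and 52.4% were higher, 0.739% at least 2-fold higher and 0.666% at least 2-fold lower. Of 19 basal and adhesion genes tied to p63, all were measured, 6 were higher and 13 lower, with a median of -0.12, which was -0.026 with a median shift and -0.37 with 1 higher on the scale of the epithelium markers. The highest were *Fgfr2*, a receptor for fibroblast growth factors, at 0.42 and *Sfn*, a 14-3-3 protein of keratinocytes, at 0.25, and *Krt5*, a basal keratin, was also at 0.25. The lowest were *Bnc1*, a zinc finger gene of basal cells, at -0.95 and *Satb1*, a chromatin organizer, at -0.55. The genes tied to p63 thus lay on both sides of 0, with more of them below it, and a link to the *Trp63* values was not tested.

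The barrier genes tied to *Klf4* and *Grhl3* had a median of 0.77, which was 0.45 with normexp. Of 17 listed, 12 were measured, 9 higher and 3 lower, and 4 were at least 2-fold higher, against 0.739% of all measured genes. These 4 were *Krtdap* at 1.18, *Lor*, the main protein of the cornified envelope, at 1.15, *Cdsn*, which joins corneocytes, at 1.08, and the lipoxygenase *Aloxe3*, just past the threshold with normalized signals of 0.103 on the WT array and 0.207 on the KO array. *Sprr1b* and *Flg*, an envelope precursor and the filament-aggregating protein of cornified cells, were well above background on the KO array alone, at least 4.91-fold and 5.18-fold higher. The lowest were *Casp14* at -0.25 and *Alox12b* at -0.09, and *Ivl*, *Abca12* and *Tgm5* were not well above background on either array. Their summed normalized signal over the measured genes was 17.7 on the WT array and 28.0 on the KO array.

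Of 10 junction genes tied to *Grhl2*, 9 were measured, 4 higher and 5 lower, with a median of -0.09. That median was 0.13 with 5 of 9 higher when each gene took the mean over its probes, 0.0017 with a median shift and -0.35 on the scale of the epithelium markers. *Dsp*, which anchors keratin at desmosomes, was at 0.69 and *Jup* at 0.63, the latter with dim normalized signals of 0.155 on the WT array and 0.240 on the KO array. By contrast *Cldn7*, a tight junction gene, was at -0.23, *Esrp2*, a splicing factor of epithelia, at -0.22 and *Cdh1*, E-cadherin, at -0.09. The *Grhl2* signal was higher without a common direction over these genes. Of 12 hair shaft genes tied to *Foxn1* that had a probe and a reference symbol, 6 were measured, 5 higher and 1 lower, with a median of 0.08 and 0 at least 2-fold apart, and on the scale of the epithelium markers 2 of 6 were higher and the median was -0.17, against 14.9% and -0.24 for all genes. The hair keratins *Krt81* and *Krt36* were at 0.42 and 0.39 and the lowest were *Krt86* at -0.38 and *Lef1*, a Wnt pathway factor, at 0.04, while *Hoxc13*, *Dsg4*, *Krt33a*, *Krt33b*, *Krt34* and *Krt35* were not well above background on either array. Of 9 genes of mesenchymal transition that Ovol and Grhl factors oppose, 5 were higher and 4 lower, with a median of 0.29, which was 0.04 on that scale. The highest were *Myc* at 0.51 and *Zeb2* at 0.41, and the lowest were *Cdh2*, N-cadherin, at -0.44 and *Twist1* at -0.11.

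**Figure D4:**
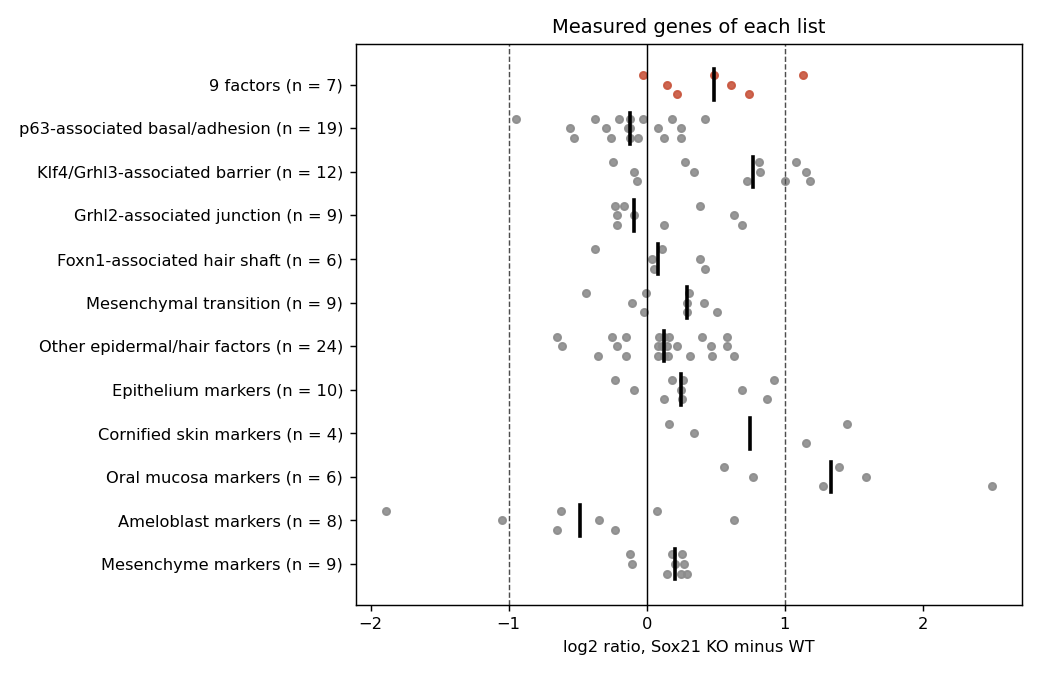
Log2 ratio (Sox21 KO minus WT) of each measured gene of the lists named in the text, with black bars at the medians and dashed lines at a 2-fold difference. The 9 factors have a median of 0.49 (7 measured), the barrier genes 0.77, the oral mucosa markers 1.34 and the ameloblast markers -0.48.

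The 9 factors are made by several kinds of epithelium, and in RNA of a whole tooth germ more cells of a kind and more RNA per cell cannot be told apart. The tissue label was borne out by its markers. All 8 ameloblast genes were measured, among them *Amelx* with a normalized signal of 1472 on the WT array and 1554 on the KO array, and all 5 odontoblast genes, from *Dmp1* at 0.93 and *Phex* at 0.79 to *Nes* at 0.06 and *Dspp* at -0.01. Markers of epithelium as a whole were measured in 10 of 10, 8 higher and 2 lower, with a median of 0.25 and summed normalized signals of 582 and 694. The highest of these were *Krt18* at 0.92 and *Krt19* at 0.87, keratins of simple epithelia, and the lowest were *Cldn7* and *Cdh1*. Mesenchyme markers, 9 of 9 measured, had a median of 0.20 and sums of 1253 and 1422, with *Vim* at 0.29 and *Pdgfrb* at 0.27 highest and *Col3a1* at -0.12 and *Twist1* lowest, and on the scale of the epithelium markers the median was -0.05.

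Markers of oral mucosa and of cornified skin were set beside the factors. Of 9 oral mucosa markers 6 were measured and all 6 were higher, with a median of 1.34, which was 0.98 with normexp, and sums of 22.5 and 45.8. At least 2-fold higher were 4 of them, against 0.739% of measured genes, namely *Cldn17* at 2.50, *Sprr3* at 1.59, *Krt6b* at 1.39 and *Krt6a* at 1.28. *Sprr3* was dim, with a normalized signal of 0.104 on the WT array, below that of *Foxn1*. The lowest were *Krt16* at 0.77 and *Krt13* at 0.56. *Krt13* had another measured probe at 1.94 and a mean of 1.25 over both, so that its place among the lowest depended on the probe. *Krt4*, a keratin of mucosa above its basal layer, and *Krt78* were well above background on the KO array alone, at least 7.81-fold and 2.07-fold higher, and *Krt76* was not so on either array. Of 8 cornified skin markers 4 were measured and all 4 were higher, with a median of 0.75 and sums of 5.87 and 11.4. Without the filter on dim probes 5 of 8 were higher and the median was 0.25. This was below the 0.61 of the factors on that setting, which takes in the dim *Ovol1* and *Gata3*. With the weaker scanner mark or the mean over probes the median of the cornified skin markers was 1.15 or 1.12. On the scale of the epithelium markers it was 0.50, with 3 of 4 higher. *Krt1* was at 1.45, *Lor* at 1.15, *Krt10* at 0.34 and *Krt2* at 0.16, though *Krt10* was at 1.84 at its other measured probe and at 1.09 as the mean of both, while *Flg2*, *Krt77* and *Hrnr* were not well above background on either array. The part of such epithelium in the values of *Klf5*, *Grhl2*, *Grhl3* and *Foxn1* was not tested. Ameloblast markers had 2 higher and 6 lower, a median of -0.48 and sums of 3169 and 2872. Among them *Amtn* at -1.89 and *Klk4* at -1.05 were at least 2-fold lower, against 0.666% of measured genes, while the highest were *Odam* at 0.63 and *Amelx* at 0.08. Since *Gata3* and *Foxn1* also belong to the thymus, T cell markers were checked. *Cd3d*, *Cd3g* and *Cd2* were not well above background on either array, and *Cd3e* and *Lck* were at 0.05 and 0.01. The *Cd3e* probe was bright, with normalized signals of 7.21 on the WT array and 7.48 on the KO array. Why it stood apart from *Cd3d* and *Cd3g* was not tested. *Ptprc*, a gene of all white blood cells, was well above background on the KO array alone at no less than 1.09-fold.

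On the scale of the epithelium markers 4 of the 7 factors remained above 0, *Foxn1* at 0.88, *Grhl3* at 0.49, *Grhl2* at 0.36 and *Klf5* at 0.24, and *Trp63*, *Grhl1* and *Klf4* were at -0.029, -0.11 and -0.28. Above 0 were also 5 of 22 relatives and 9 of 12 barrier genes, where 14.9% of all measured genes were. The median was 0.24 for the 7 factors and -0.16 for the relatives, against -0.24 for all measured genes. Under the other scalings and the other background correction 6 or 7 of the 7 factors were above 0, 13 to 17 of the 22 relatives and 10 or 11 of the 12 Kruppel-like genes.

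**Figure D5:**
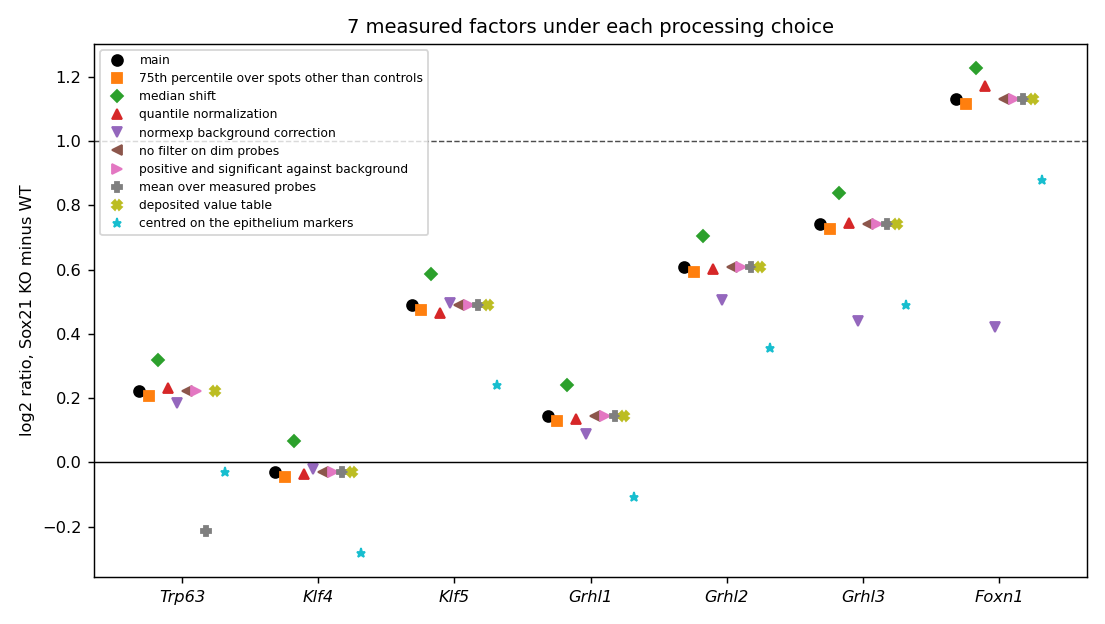
Log2 ratio (Sox21 KO minus WT) of the 7 measured factors under each processing choice, with dashed and solid lines at a 2-fold difference and at 0. Over the 9 settings that exclude the epithelium scale, *Foxn1* ranges from 0.42 to 1.23, *Grhl3* from 0.44 to 0.84 and *Klf5* from 0.47 to 0.59, while *Klf4* ranges from -0.05 to 0.07 and *Trp63* from -0.21 to 0.32.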

How the data were processed

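The authors isolated total RNA from incisors of WT and *Sox21* KO mice, labelled it with Cy3 and hybridized it to Agilent SurePrint G3 Mouse GE arrays, 1 array per genotype. The deposited scanner files give the intensity of each spot after background removal by Feature Extraction 10.7.3.1 (submitters' processing notes), called the processed signal, with its error and the raw intensities. A deposited table of ratios holds the same signals divided by 1 number per array, its 75th percentile, which the study's methods call a percentile shift without naming the percentile. It was used as an alternative.

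Here each processed signal was divided by the 75th percentile over all 62976 spots of its array, and log2 ratios computed from these deposited signals were averaged over the spots of a probe. Log2 values are differences of *Sox21* KO and WT. The authors' outlier marks removed 267 spots. Of 55679 probes, 26298 took their name from an accession, 2044 from a current symbol and 355 from an older one in RefSeq GRCm38.p6, and 26982 kept the file's name. Probe coordinates are the files' mm9 positions, and no mm9 gene annotation was used here, so that positions within exons or untranslated regions are not given apart from the probes described as coding. A probe well above background on 1 array was given a bound against the larger of its own signal and the lowest signal so marked on the other array, and one on neither was given no ratio. The precision is limited by the 2 arrays. The median local background was 27 (WT) and 23 (KO), and saturation was marked on 0 spots.

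The 9 genes and all gene lists were chosen with earlier results of these data known. Some genes belong to 2 lists, for example *Lor* and *Flg* to barrier and cornified skin and *Dsp* and *Cdh1* to junctions and epithelium. Named are the 9 factors with every probe, *Sox21*, and from each list the genes at least 2-fold apart and the 2 highest and 2 lowest, and further genes of these lists were named after their values were seen, for their role. Endothelium markers were 6 of 6 measured with a median of 0.08, from *Tek* at 0.64 and *Pecam1* at 0.62 to *Kdr* at -0.02 and *Emcn* at -0.29, and odontoblast markers 5 of 5 with a median of 0.11, or -0.17 and -0.14 on the scale of the epithelium markers. No test was run. Other settings, 9 in all, changed scaling, background correction, filter, probe choice, source and threshold, and 1 further scale was chosen after seeing the data. Only the step from probes to genes was first tested on simulated data. Python 3.11.15, numpy 2.4.6, pandas 2.3.3, matplotlib 3.10.9, R 4.3.3 and limma 3.58.1 were used.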

Additional observations from a re-analysis of the deposited data

How the results depend on the processing

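No paired analysis was possible because each genotype has 1 array. The number of factors at least 2-fold higher, 1 as reported, was 0 with normexp, 2 without a filter on dim probes, 3 at a threshold of 1.5-fold and 0 on the scale of the epithelium markers. The factor added without the filter was *Gata3*, whose spot was marked as not found on both arrays. The median log2 ratio, 0.49 as reported, was 0.61 without the filter, which takes in the dim *Ovol1* and *Gata3*, and 0.24 on the epithelium scale. *Klf4* was 0.066 with a median shift, *Trp63* was -0.21 as the mean over its probes, and on the epithelium scale *Trp63* was -0.029 and *Grhl1* -0.11. The other values at single factors kept their direction, with 51 that moved by less than 0.10, the median SD between repeated spots of 432 probes, and 8 that moved by more. These 8 were *Grhl2* at 0.51, *Grhl3* at 0.44 and *Foxn1* at 0.42 with normexp, and on the epithelium scale *Klf4* at -0.28, *Klf5* at 0.24, *Grhl2* at 0.36, *Grhl3* at 0.49 and *Foxn1* at 0.88. Over all genes, 102 were at least 2-fold higher and 92 lower as reported, against 136 and 63 with a median shift, 46 and 40 with normexp, 508 and 695 without the filter, 293 and 321 with the weaker mark of positive and significant signal, 442 and 412 at 1.5-fold, and 52 and 217 on the epithelium scale. Among 140 measured genes of the lists, 31 had several measured probes, and the brightest probe and the mean over probes differed in sign for 4 of them, *Dsc3*, *Dspp*, *Esrp1* and *Kdr*, and in the 2-fold call for 2, *Krt10* and *Krt13*. Signals near background limit *Foxn1*, *Ovol1*, *Gata3* and the dim *Grhl2* probe. The cause of these shifts was not tested.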

Other observations

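Past *Klf5* on chromosome 14, the array carries probes for a long noncoding RNA, and 1 of them was looked at after its values were seen. The probe at chr14:99753321-99753380 (mm9) gave a processed signal of 34152 with WT RNA and 5.38 with KO RNA, and the scanner marked no outlier. Its neighbours for the same region gave 5.99 and 5.38 (chr14:99753471-99753530) and 4.56 and 13.7 (chr14:99753381-99753440), with neither well above background on either array. Each probe is 1 spot per array and the difference between them was not tested.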
